A study of Mus musculus with 4 samples.

Results

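The genes described here are *Slc1a3*, *Slc1a2*, *Slc38a1*, *Slc38a2*, *Glul* and *Abat*, which encode carriers and enzymes that take up and convert glutamate, glutamine and GABA. They were chosen by symbol, as 6 of the 33456 genes listed in the deposited matrices, of which 19095 had at least 1 UMI (unique molecular identifier, 1 captured RNA molecule) in the filtered cells. All 6 were detected. Single cell RNA-seq libraries were made from dissociated whole dorsal root ganglia (DRG) of C57BL/6 mice aged 8 to 12 weeks. Cells were sorted for viability only and captured on the 10x Chromium system. Of the 4 libraries, 2 were from uninjured ganglia (control 1 and control 2) and 2 from ganglia taken 3 days after a crush of the sciatic nerve (injury 1 and injury 2). Per the study's methods the animals were female, each batch pooled cells of several mice, and L4 and L5 ganglia were taken, where the labels name L4 alone. The labels give no genotype beyond the strain. In the injury tests within a class or over all cells, p-values measure the spread between 4 pools of mice. In comparisons between the cell classes defined below, they measure the spread left between class sums once library is a block. The same 4 libraries enter those fits once per class, so a small p-value there does not stand for more animals.

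Glutamate released by neurons is cleared by sodium-driven carriers of the SLC1 family, of which GLAST (*Slc1a3*) and GLT-1 (*Slc1a2*) are the main astrocyte forms. Inside glia, glutamine synthetase (*Glul*) turns glutamate and ammonia into glutamine, which leaves and enters cells through SLC38 carriers such as SNAT1 (*Slc38a1*) and SNAT2 (*Slc38a2*), while GABA transaminase (*Abat*) breaks down GABA. Satellite glial cells (SGC) wrap the cell bodies of sensory neurons and are often identified in the DRG by glutamine synthetase. Endothelial cells also make glutamine synthetase.

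On GRCm38 (mm10; GENCODE vM21 annotation) *Glul* lies at chr1:153899944-153909723 on the forward strand and *Slc1a2* at chr2:102658659-102790784 on the forward strand. *Abat* lies at chr16:8513429-8621568, also on the forward strand. *Slc1a3* occupies chr15:8634124-8710764 on the reverse strand. *Slc38a1* (chr15:96571418-96642913) and *Slc38a2* (chr15:96687392-96699730) are neighbours on the reverse strand of the same chromosome, separated by 44478 bases that hold 1 annotated gene and 0 protein-coding genes. The start of *Glul* overlaps *Teddm2* on the other strand and the microRNA gene *Mir8114*, an antisense gene (*Gm13872*) lies within *Slc1a2*, and an unclassified gene (*Gm37310*) within *Slc1a3*. The strand setting of the counting is not given in the sources used here, and whether UMIs of such a partner were counted for a member was not tested.

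The 250 bases before the RefSeq start (GRCm38.p6) are shown for *Glul*, the member highest in endothelial-like cells, and for *Slc1a3* and *Slc38a2*, which run in opposite directions within the fibroblast-like cells below, 5′ to 3′ on the gene's own strand. Capitals mark matches, on either strand, to the TATA box motif TATAAA, to the CCAAT box, to the GC box motif GGGCGG or to the E-box motif CACGTG. The windows are chr1:153899679-153899928 (forward strand) for *Glul*, chr15:8710808-8711057 (reverse strand) for *Slc1a3* and chr15:96699729-96699978 (reverse strand) for *Slc38a2*.
Glul: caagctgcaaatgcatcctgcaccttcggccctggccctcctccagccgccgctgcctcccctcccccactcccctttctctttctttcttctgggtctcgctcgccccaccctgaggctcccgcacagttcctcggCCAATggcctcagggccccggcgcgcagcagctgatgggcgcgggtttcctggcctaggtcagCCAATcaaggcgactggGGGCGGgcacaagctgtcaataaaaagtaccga
Slc1a3: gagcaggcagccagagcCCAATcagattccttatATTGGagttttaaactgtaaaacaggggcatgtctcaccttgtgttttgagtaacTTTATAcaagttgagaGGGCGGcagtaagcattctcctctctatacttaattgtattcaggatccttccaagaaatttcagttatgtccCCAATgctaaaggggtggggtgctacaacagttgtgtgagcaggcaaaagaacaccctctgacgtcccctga
Slc38a2: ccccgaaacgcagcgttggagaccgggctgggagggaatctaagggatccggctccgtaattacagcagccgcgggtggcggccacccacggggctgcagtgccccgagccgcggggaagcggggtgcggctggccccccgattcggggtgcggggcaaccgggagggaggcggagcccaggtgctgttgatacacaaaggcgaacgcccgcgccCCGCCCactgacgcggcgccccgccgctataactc
The *Slc38a2* window was GC-rich, with 72.0% G or C and 30 CpG dinucleotides. The *Glul* window had 64.8% and 15, and the *Slc1a3* window 44.8% and 2, where the median over 32851 promoters of the same length was 52.4% and 6. TATAAA occurred once in the *Slc1a3* window and in 12.4% of all promoters, and CCAAT occurred 2 times before *Glul*, 3 times before *Slc1a3* and in 33.8% of all promoters. GGGCGG had 1 match in each of the 3 windows and was present in 32.7% of promoters, and CACGTG (6.02% of promoters) had 0 matches. These are letter matches in short windows and carry no statement on any factor.

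Of 6975 barcodes, 6095 passed the limits on UMIs, genes and mitochondrial share given in the methods, with a median of 2775 to 4845 UMIs per cell in the 4 libraries, and 13 of the filtered barcodes occurred in more than 1 library. A cell was placed in a class, written as X-like, when it held at least 2 of the 6 marker genes of that class and at least 2 more than of any other class. This placed 4294 cells (70.5%) in 16 classes, and no member was among the markers. The number of SGC-like cells was 26 in control 1, 266 in control 2, 296 in injury 1 and 134 in injury 2. Fibroblast-like cells numbered 1231 over the 4 libraries, macrophage-like cells 999, endothelial-like cells 433 and myelinating Schwann-like cells 217. The genes of highest fold in these classes matched their names (*Fabp7* and *Mmd2*, *Dcn* and *Apod*, *C1qa* and *C1qb*, *Cldn5* and *Ly6c1*, and *Ncmap*), whereas the class gated on monocyte markers was led by *Elane* and *Mpo* and is called by those genes. Levels are in CPM, the UMIs of a gene divided by all UMIs of the cells of a class in a library and scaled to 1000000 UMIs, given for pools of at least 10 cells. Classes were compared with edgeR's quasi-likelihood test on the summed UMIs with library as a block, Benjamini-Hochberg adjusted over all genes tested.

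**Figure D1:**
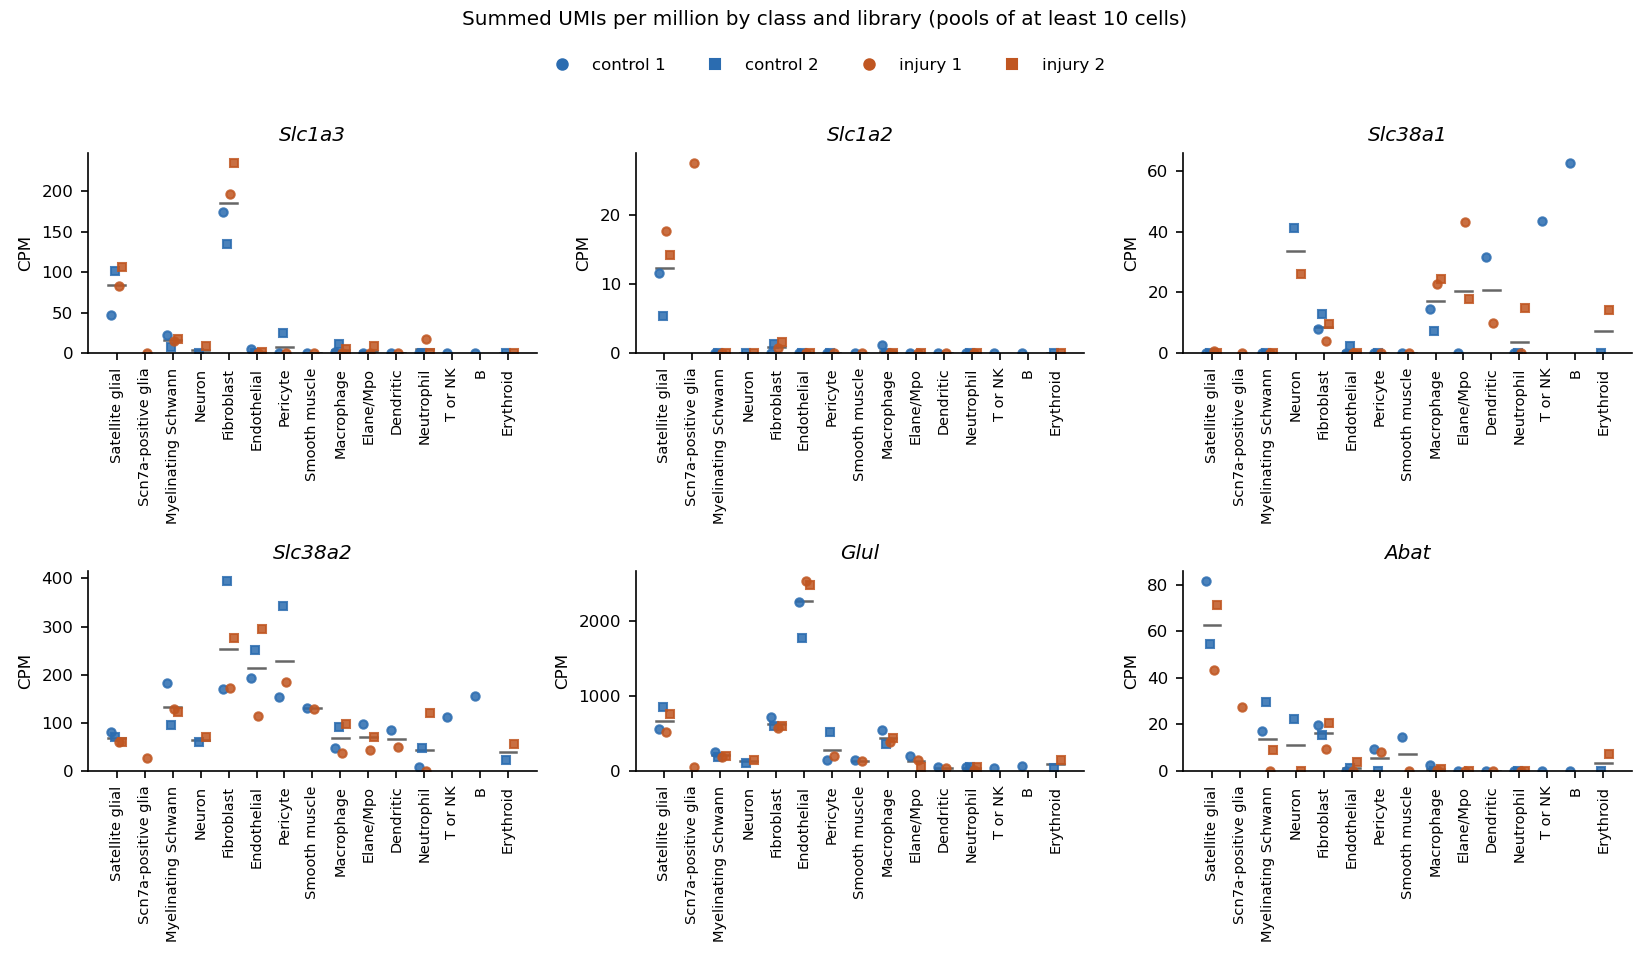
Level of each member (y axis, CPM, linear, a scale per panel) in each class (x axis) and library (points; grey bar, mean of the libraries shown where there are at least 2). *Slc1a3* stood at 135 to 235 CPM in fibroblast-like and 46.7 to 107 CPM in SGC-like cells, and *Glul* at 1766 to 2534 CPM in endothelial-like cells.

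*Slc1a3*, the GLAST glutamate carrier, was highest in fibroblast-like cells and second in SGC-like cells. In fibroblast-like cells it stood at 175 and 135 CPM in control 1 and control 2 and at 197 and 235 CPM in injury 1 and injury 2 (mean 185 ± 42.0, SD, n = 4). In SGC-like cells the values were 46.7, 102, 82.5 and 107 CPM in the same order (84.5 ± 27.3, SD, n = 4). Each library had more *Slc1a3* in its fibroblast-like than in its SGC-like cells, and the difference was 1.02 ± 0.22 on the log2 scale (SE; edgeR, adjusted p = 1.26e-04). Myelinating Schwann-like cells held 10 UMIs in all (15.8 ± 6.38 CPM, SD, n = 4), and SGC-like cells exceeded them by 2.59 ± 0.47 on the log2 scale (edgeR adjusted p = 2.83e-05). Over the libraries together, fibroblast-like cells had 190 times the level of endothelial-like cells, which held 2 UMIs (95% counting interval 52.3 to 1568). Of the *Slc1a3* UMIs in filtered cells, 63.0% lay in fibroblast-like cells, which hold 21.2% of all UMIs, and 20.1% in SGC-like cells, which hold 13.3%.

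The markers of other classes were read beside these values. In the SGC-like pools the fibroblast list summed to 199 to 400 CPM, 0.317% to 0.916% of its level in fibroblast-like cells with 0 or 1 of its 6 genes at 0, while *Slc1a3* there was lower than in fibroblasts by a factor of 1.96 (counting interval 1.72 to 2.23). Myelinating Schwann-like pools had 0.681% to 2.73% of the fibroblast list's own level and 0.616% to 4.10% of the SGC list's. Macrophage-like pools had *Slc1a3* at 1.21, 11.1, 0.398 and 4.69 CPM in control 1, control 2, injury 1 and injury 2, and the SGC list summed to 36.4, 619, 151 and 329 CPM there (0.266% to 3.53% of its own level). The fibroblast list summed to 302, 247, 132 and 441 CPM in these pools. *Slc1a3* and the SGC list were highest in control 2 and the fibroblast list in injury 2, while *Slc1a3* and the fibroblast list were lowest in injury 1 and the SGC list in control 1. The part of such RNA from other cells in the low Schwann and macrophage values was not tested.

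*Slc1a2*, the GLT-1 glutamate carrier, was a rare transcript that, among the cells placed in a class, lay mainly in SGC-like cells. The SGC-like pools held 1 UMI in control 1, 7 in control 2, 23 in injury 1 and 10 in injury 2, which is 11.7, 5.45, 17.7 and 14.2 CPM. All other gated cells held 7 UMIs, of which *Scn7a*-positive glia held 1, macrophage-like cells 1 and fibroblast-like cells 5. The level in SGC-like cells was 13.1 times that in fibroblast-like cells (counting interval 5.19 to 42.6). Endothelial-like cells had 0 UMIs and were at least 8.35-fold lower, taking 3 UMIs over the class as the floor, and Schwann-like cells with 0 UMIs were at least 2.51-fold lower. A further 39 of the 87 filtered UMIs (44.8%) lay in cells that met no class, against 47.1% in SGC-like cells. With the upper limits on UMIs and genes per cell lifted, 140 neuron-like cells held 7 UMIs (2.18 CPM).

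*Slc38a1* (SNAT1) had few UMIs in glia. SGC-like cells held 1 UMI in 722 cells, and 0 of 217 myelinating Schwann-like cells held one (upper limit of the share 1.38%, which limits cells with a UMI and not cells that express the gene). Macrophage-like cells had 97 UMIs and neuron-like cells 14 in 49 cells. The neuron-like pools of at least 10 cells stood at 41.1 CPM in control 2 and 26.2 CPM in injury 2. When the upper limits on UMIs and genes per cell were lifted, 140 neuron-like cells held 119 UMIs, with 32.3, 32.1, 52.4 and 45.3 CPM in control 1, control 2, injury 1 and injury 2. All these values were above every library of the macrophage-like (14.6, 7.37, 22.7 and 24.4 CPM) and fibroblast-like cells (4.04 to 12.8 CPM). Over the filtered cells together, the ratio of neuron-like to macrophage-like cells was 1.57 (counting interval 0.828 to 2.76), which does not separate them. Small immune pools of at least 10 cells reached the same levels. In control 1 T or NK-like cells had 43.3 CPM from 7 UMIs, B-like cells 62.7 CPM from 2 UMIs and dendritic-like cells 31.7 CPM from 3 UMIs, and in injury 1 the *Elane* and *Mpo* class had 43.2 CPM from 5 UMIs. *Slc38a1* and *Slc1a2* were below the count filter of the fit over 12 classes and were not tested there.

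*Slc38a2* (SNAT2), the stress-responsive glutamine carrier, was found in every class. Fibroblast-like cells had 170, 395, 172 and 276 CPM in control 1, control 2, injury 1 and injury 2 (253 ± 107, SD, n = 4), pericyte-like cells 228 ± 101 (SD, n = 3) and endothelial-like cells 214 ± 78.1 (SD, n = 4). Myelinating Schwann-like cells followed at 133 ± 35.8 CPM. The lowest of the large classes were macrophage-like cells at 68.7 ± 30.6 CPM and SGC-like cells at 68.5 ± 10.3 CPM (SD, n = 4). The difference between endothelial-like and fibroblast-like cells missed the threshold (log2 difference -0.32 ± 0.19, SE, edgeR adjusted p = 0.16), as did that between SGC-like and macrophage-like cells (-0.30 ± 0.24, adjusted p = 0.28). Fibroblast-like cells exceeded SGC-like cells by 1.93 ± 0.21 on the log2 scale (adjusted p = 1.24e-10). SGC-like cells were also below myelinating Schwann-like cells (0.499 times their level, edgeR adjusted p = 0.0060), a difference that missed the threshold without control 1 (log2 difference -0.76, adjusted p = 0.092).

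*Glul*, glutamine synthetase, was highest in endothelial-like cells. They had 2242, 1766, 2534 and 2479 CPM in control 1, control 2, injury 1 and injury 2 (2255 ± 350, SD, n = 4), and each of these was above every pool of at least 10 cells of any other class. SGC-like cells had 561, 849, 523 and 753 CPM (671 ± 155, SD, n = 4) and fibroblast-like cells 722, 599, 567 and 604 CPM (623 ± 67.7, SD, n = 4), so that the ranges overlapped. Endothelial-like cells exceeded SGC-like cells by 1.69 ± 0.24 on the log2 scale (edgeR adjusted p = 4.10e-08). SGC-like cells exceeded myelinating Schwann-like cells (185 to 256 CPM) by 1.81 ± 0.27 (adjusted p = 6.63e-07). The differences between fibroblast-like, SGC-like and macrophage-like cells (365 to 548 CPM) missed the threshold, with a 95% interval of the log2 difference of -0.56 to 0.37 for fibroblast-like against SGC-like cells (adjusted p = 0.78), -0.27 to 0.65 for fibroblast-like against macrophage-like cells (adjusted p = 0.50) and -0.19 to 0.75 for SGC-like against macrophage-like cells (adjusted p = 0.31). Endothelial-like cells held 30.2% of the *Glul* UMIs of the filtered cells and SGC-like cells 15.9%.

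*Abat*, GABA transaminase, was highest in SGC-like cells. The SGC-like pools stood at 81.7, 54.5, 43.2 and 71.2 CPM in control 1, control 2, injury 1 and injury 2 (62.6 ± 17.1, SD, n = 4). Fibroblast-like cells had 19.97, 15.5, 9.44 and 20.5 CPM, so each SGC-like pool was above each fibroblast-like pool. The log2 difference, fibroblast-like minus SGC-like, was -1.89 ± 0.33 (edgeR adjusted p = 7.05e-06). Myelinating Schwann-like cells held 8 UMIs, and SGC-like cells exceeded them by 2.31 ± 0.53 (adjusted p = 7.51e-04). SGC-like cells had 37.3 times the level of endothelial-like cells, which held 3 UMIs (counting interval 12.6 to 182), and macrophage-like cells held 4 UMIs among 999 cells.

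**Figure D2:**
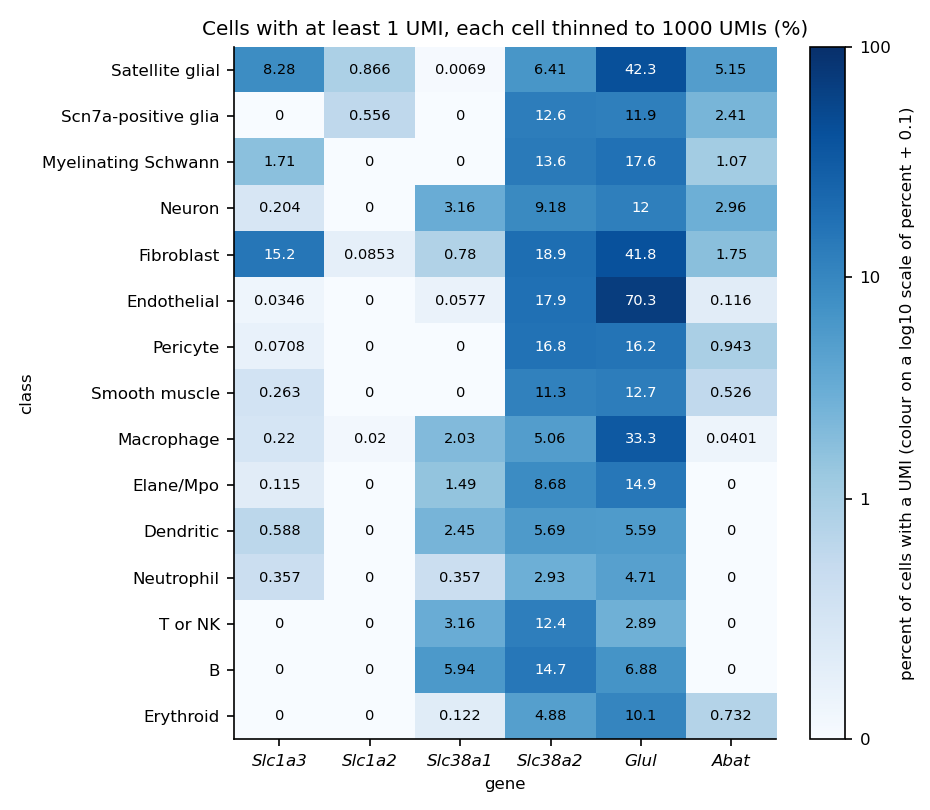
Percent of cells with at least 1 UMI of each member (columns) in each class (rows), with every cell thinned to 1000 UMIs and the mean over 20 draws printed in the box. *Glul* was seen in 70.3% of endothelial-like, 42.3% of SGC-like and 2.89% of T or NK-like cells.

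At a fixed depth of 1000 UMIs per cell, *Glul* was seen in 70.3% of endothelial-like, 42.3% of SGC-like, 41.8% of fibroblast-like and 33.3% of macrophage-like cells (89.1%, 77.6%, 78.6% and 72.9% before thinning). In T or NK-like cells it was seen in 2.89% (10.5% before thinning). These cells were taken as the background from free RNA, and whether they express *Glul* themselves was not tested. Of the 57 T or NK-like cells 49 were from control 1, where the SGC list summed to 10.4 CPM in fibroblast-like cells, against 582 CPM in control 2, so this background says little of the other libraries. Median depths were 4302, 4332, 4091, 4079 and 2488 UMIs in these classes. *Slc1a3* was seen in 15.2% of fibroblast-like and 8.28% of SGC-like cells (41.4% and 33.2% before thinning) and in 0 of 57 T or NK-like cells (upper limit of the share 5.26%). *Abat* was seen in 5.15% of SGC-like and 1.75% of fibroblast-like cells (21.6% and 6.66% before thinning). For *Slc1a2* in SGC-like cells the shares were 0.866% and 5.26%. Both *Slc1a2* and *Abat* also had 0 UMIs in T or NK-like cells. The SLC38 carriers were seen in T or NK-like cells too, *Slc38a2* in 12.4% (18.9% of fibroblast-like, 6.41% of SGC-like) and *Slc38a1* in 3.16% (2.03% of macrophage-like), so these shares are not read against a background. Thinning left out 3 Schwann-like cells, 1 macrophage-like and 1 pericyte-like cell as too shallow. In the SGC-like cells 213 of 722 held both *Glul* and *Slc1a3*, where the product of the single shares gives 186, and 19 held both *Slc1a2* and *Slc1a3* where it gives 12.6. Deeper cells hold more of every gene, so these counts are a description.

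Against the mean of the other 11 classes, 4 members passed the count filter (6728 genes tested) and 6 pairs of member and class were at least 4-fold higher at adjusted p under 0.05. SGC-like cells had 2 of these, *Slc1a3* and *Abat*, with 13.7% of all genes called. Fibroblast-like cells had the same genes, with 15.1% of all genes called. Endothelial-like cells had 1 (*Glul*, log2 difference 3.54 ± 0.16; 13.8% of all genes), myelinating Schwann-like cells 1 (*Slc1a3*; 11.2%) and macrophage-like and neuron-like cells 0 (13.4% and 12.2%). *Glul* was also higher, by less than 4-fold, in SGC-like (1.70 ± 0.18), fibroblast-like (1.60 ± 0.17) and macrophage-like cells (1.40 ± 0.18). Under a stricter gate, with at least 3 markers of a class and at most 1 of any other, these were 0.56, 0.59 and 0.35, and the last one was not called (adjusted p = 0.15). That gate also left neuron-like (9) and neutrophil-like cells (5) with too few cells for a pool, so the mean of the other classes was taken over fewer of them. The *Slc1a3* call in Schwann-like cells (2.42 ± 0.93, adjusted p = 0.046) was lost under that gate (adjusted p = 0.15) and without control 1 (1.33, adjusted p = 0.41), injury 1 (1.96, adjusted p = 0.17) or injury 2 (2.52, adjusted p = 0.10). Several classes hold 0 UMIs of *Slc1a3* or *Abat*, so that their fitted differences (5.24 and 4.54 in SGC-like cells, 6.35 and 2.48 in fibroblast-like cells) depend on the prior count, and without control 1 those of *Slc1a3* were 4.60 and 5.63.

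Each class was therefore also compared with the UMIs of all other gated cells of the same library summed, a comparison added after the levels were seen. In SGC-like cells *Abat* was at least 4-fold higher (2.96 ± 0.24, SE, edgeR adjusted p = 1.55e-10), with 5.19% of all genes called. *Slc1a2* was higher too (4.59 ± 0.54), but it passed the count filter in this contrast and in none of the other 4, so its value is a description. *Slc1a3* was 0.49 ± 0.19 higher there (adjusted p = 0.034), and *Glul* differed by -0.04 ± 0.17 (adjusted p = 0.87). The *Slc1a3* difference was not called by DESeq2 (0.33, adjusted p = 0.36), with its size factors in edgeR (0.39, adjusted p = 0.076), with no count filter (0.45, adjusted p = 0.053), or without control 2 (0.34, adjusted p = 0.16) or injury 2 (0.49, adjusted p = 0.15). *Slc38a2* (-1.29 ± 0.19) was lower in SGC-like cells, and *Slc38a1* (-5.12 ± 0.72) was at least 4-fold lower, where 13.4% of all genes were. With 1 UMI in SGC-like cells, *Slc38a1* passed the count filter through the other cells, so its value is a description. Fibroblast-like cells had 1 member at least 4-fold higher, *Slc1a3* (3.06 ± 0.45, adjusted p = 0.0016; 5.56% of all genes), *Slc38a2* higher by 1.27 ± 0.17, and 0 members lower (8.06% of all genes at least 4-fold lower). Endothelial-like cells had *Glul* at least 4-fold higher (2.02 ± 0.17, edgeR adjusted p = 7.26e-07), where 6.2% of all genes were. *Slc38a2* was higher there by less (0.45 ± 0.16, edgeR adjusted p = 0.036). *Slc1a3*, *Abat* and *Slc38a1* were at least 4-fold lower in endothelial-like cells (-6.50, -3.93 and -3.58), where 13.0% of all genes were. Endothelial-like cells held 2, 3 and 2 UMIs of these genes, which passed the count filter through the other cells, so these values are a description too. Macrophage-like cells had *Slc38a1* higher by 2.01 ± 0.39 (adjusted p = 0.0022; 6.39% of all genes), which was called but under 4-fold without injury 1 (1.48). *Slc1a3* (-4.99 ± 0.47) and *Abat* (-4.01 ± 0.52) were at least 4-fold lower in macrophage-like cells, where 16.1% of all genes were, and *Slc38a2* (-0.97 ± 0.16) was lower by less. *Slc1a3* and *Abat*, with 10 and 4 UMIs in macrophage-like cells, likewise passed the filter through the other cells, and their values are a description. In myelinating Schwann-like cells 0 members were higher (3.65% of all genes). *Glul* (-1.82 ± 0.19) was lower there by less than 4-fold, and *Slc1a3* (-2.26 ± 0.37) and *Slc38a1* (0 UMIs, adjusted p = 0.019, with a fitted value that depends on the prior count) by more, where 14.2% of all genes were. *Slc38a1* passed the count filter there through the other cells, so its difference is a description.

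Between the glial classes, SGC-like cells had 2 of the 4 tested members at least 4-fold higher than myelinating Schwann-like cells, *Slc1a3* and *Abat*, where 5.86% of all genes were called. At adjusted p under 0.05 alone all 4 differed (23.9% of all genes), *Glul* also upward and *Slc38a2* downward. The corresponding share for fibroblast-like against SGC-like cells was 47.5% of all genes and 3 of 4 members, all but *Glul*. The third glial class, *Scn7a*-positive glia, had only 27 cells and reached 10 cells in 1 library, so it could not enter the fit. Under a looser gate with a lead of 1 marker it had 105 cells, with 19 UMIs of *Glul* (80.1 CPM, 95% counting interval 48.3 to 125) and 1 of *Slc1a3*. SGC-like cells under that gate were higher for both, 2 of 3 members tested (*Glul* 3.02 ± 0.55, edgeR adjusted p = 3.09e-04; *Slc1a3* 4.10 ± 1.11, adjusted p = 0.016), where 1.54% of all genes were called. Without injury 1 the *Abat* difference between SGC-like and Schwann-like cells was under 4-fold and 1 member was left, and without control 1 all but *Slc38a2* passed.

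Within the fibroblast-like cells the members split into opposite patterns, in a comparison added after the levels were seen. The cells were divided by marker sets chosen with the data known, 610 cells with more of *Osr2*, *Meox1*, *Cdkn2a* and *Wif1* (the *Osr2* set) and 480 with more of *Mfap4*, *Slc47a1*, *Sfrp4* and *Igf2* (the *Mfap4* set), leaving 141 with neither in excess. In the *Osr2* set *Slc1a3* stood at 221, 232, 273 and 361 CPM in control 1, control 2, injury 1 and injury 2, and in the *Mfap4* set at 40.9, 74.0, 41.2 and 81.7 CPM. *Slc38a2* ran the other way, at 98.2, 136, 79.5 and 88.3 CPM in the *Osr2* set and at 385, 565, 422 and 520 CPM in the *Mfap4* set. Neither gene had overlapping ranges.

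The log2 difference (*Osr2* set minus *Mfap4* set) was 2.30 ± 0.17 for *Slc1a3* (SE, edgeR adjusted p = 3.55e-08) and -2.08 ± 0.13 for *Slc38a2* (adjusted p = 3.98e-09), so 2 of the 3 members tested were at least 4-fold different, where 6.85% of 6015 genes were. *Glul* was the other one, at -0.15 ± 0.10 (adjusted p = 0.35). *Slc38a1* had 45 UMIs in the *Mfap4* set and 0 in the *Osr2* set, at least 19.2-fold lower against a floor of 3 UMIs over the set. *Abat* had 54 and 25 UMIs in the *Osr2* and *Mfap4* sets, a ratio of 1.69 (counting interval 1.03 to 2.84), and its library ranges overlapped. Without injury 2 the *Slc38a2* difference fell just under 4-fold (-1.97) and 1 member was left above it. The *Osr2* set made up 64.6%, 34.1%, 56.5% and 45.6% of fibroblast-like cells in control 1, control 2, injury 1 and injury 2, and the *Mfap4* set 23.5%, 56.1%, 29.8% and 44.0%. The *Slc38a2* level of all fibroblast-like cells, given above, had the same order over the libraries as the *Mfap4* share. The *Slc1a3* level did not have the order of the *Osr2* share, being highest in injury 2 (235 CPM), where that share was 45.6%. The part of the mix of sets in these levels was not tested.

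**Figure D3:**
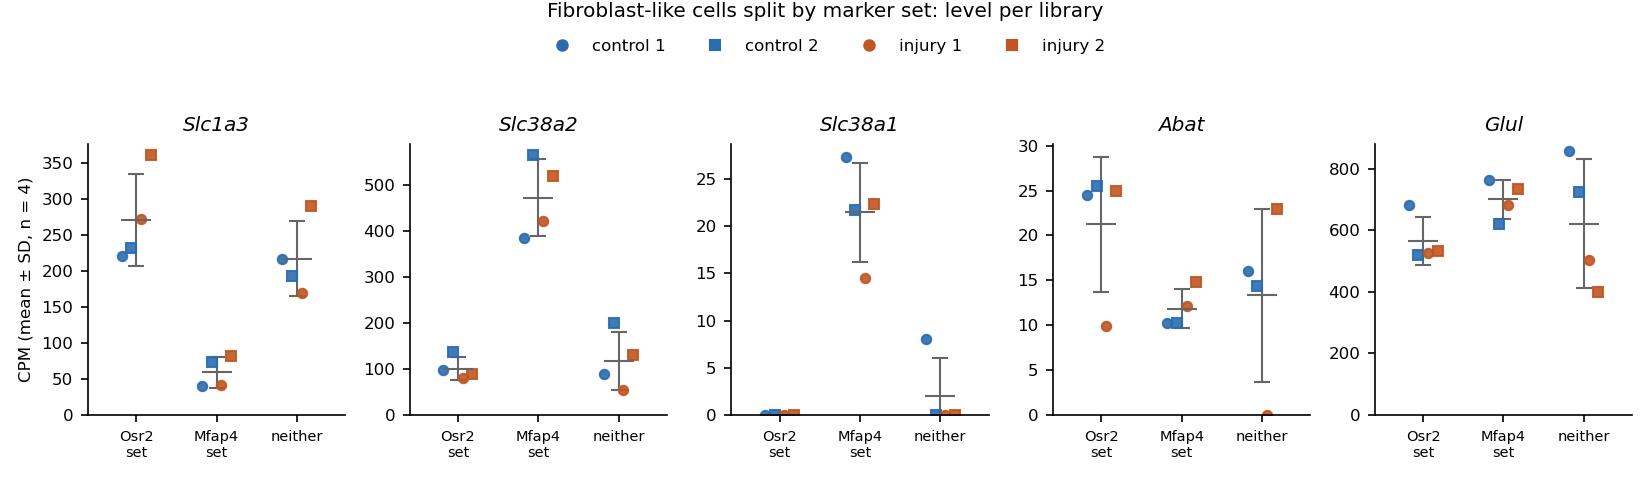
Level of 5 members (y axis, CPM, linear, a scale per panel) in fibroblast-like cells of the *Osr2* set, of the *Mfap4* set and of neither, as points by library with mean and SD (n = 4). All 4 libraries of the *Osr2* set lay above all 4 of the *Mfap4* set for *Slc1a3* (221 to 361 against 40.9 to 81.7 CPM) and below them for *Slc38a2* (79.5 to 136 against 385 to 565 CPM).

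The effect of the crush was tested within each class that had at least 10 cells in every library, 2 libraries against 2. No member was called in SGC-like, myelinating Schwann-like, fibroblast-like, endothelial-like or macrophage-like cells or over all cells at adjusted p under 0.05 with edgeR, where 0.0%, 0.0%, 0.0222%, 0.0%, 0.0% and 0.0% of all genes were called. The members past the count filter, and so tested, numbered 5, 2, 5, 2, 3 and 6 in the same order, and the rest were not tested. Neutrophil-like cells met the limit on cells, but no member passed the count filter there. At an unadjusted p under 0.05 edgeR had 1 member in SGC-like cells (*Slc1a2*) and 0 in the other classes and over all cells, with 53 to 558 genes at that level in each, and DESeq2 called 0 members in any of them, with 18 genes in macrophage-like, 11 in fibroblast-like and 1 in SGC-like cells and 6 over all cells. In simulated counts at this size, an 8-fold change was recovered for 83.0% of changed genes in SGC-like and 92.5% in fibroblast-like cells, so smaller changes can be missed. The simulation gave every gene the same assumed spread and drew the changed genes at random. Recovery for a rare member such as *Slc1a2* was not tested. Fewer cells of a class and less RNA per cell cannot be told apart in the sums over all cells.

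Both injury libraries lay on one side of both controls for 6 of the 30 pairs of a member and a class. Among the 19 pairs with at least 10 UMIs there were 5, where 28.1%, 29.2%, 27.6%, 29.0% and 38.0% of all genes with as many UMIs did so in SGC-like, myelinating Schwann-like, fibroblast-like, endothelial-like and macrophage-like cells, so this separation is no result about the members. *Slc1a2* in SGC-like cells stood at 17.7 and 14.2 CPM after injury against 11.7 and 5.45 CPM, a log2 difference of 1.45 with a 95% interval of 0.20 to 2.69 (edgeR, unadjusted p = 0.027, adjusted p = 1.00), and over all filtered cells it stood at 4.81 and 4.13 CPM against 0.932 and 2.43 CPM (1.48 ± 0.57, adjusted p = 1.00). The value of control 1 rests on 1 UMI in 26 cells, where 3 UMIs would be 35.0 CPM, and the SGC-like difference was 0.64 without control 2. *Slc1a3* in fibroblast-like cells had 197 and 235 CPM against 175 and 135 CPM (0.54, interval -0.02 to 1.10, adjusted p = 1.00). *Glul* in endothelial-like cells had 2534 and 2479 CPM against 2242 and 1766 CPM (0.42, interval -0.22 to 1.06, adjusted p = 1.00), and *Slc38a1* in macrophage-like cells 22.7 and 24.4 CPM against 14.6 and 7.37 CPM (0.77, interval -0.26 to 1.80, adjusted p = 0.68). *Slc38a2* in SGC-like cells was lower, at 60.9 and 59.8 CPM against 81.7 and 71.7 CPM (-0.25, interval -0.86 to 0.36, adjusted p = 1.00), and *Abat* in myelinating Schwann-like cells had 1 UMI after injury against 7 and was not tested. With 2 libraries a condition the smallest two-sided p of an exact permutation test is 0.333, so non-overlap alone cannot pass a threshold.

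**Figure D4:**
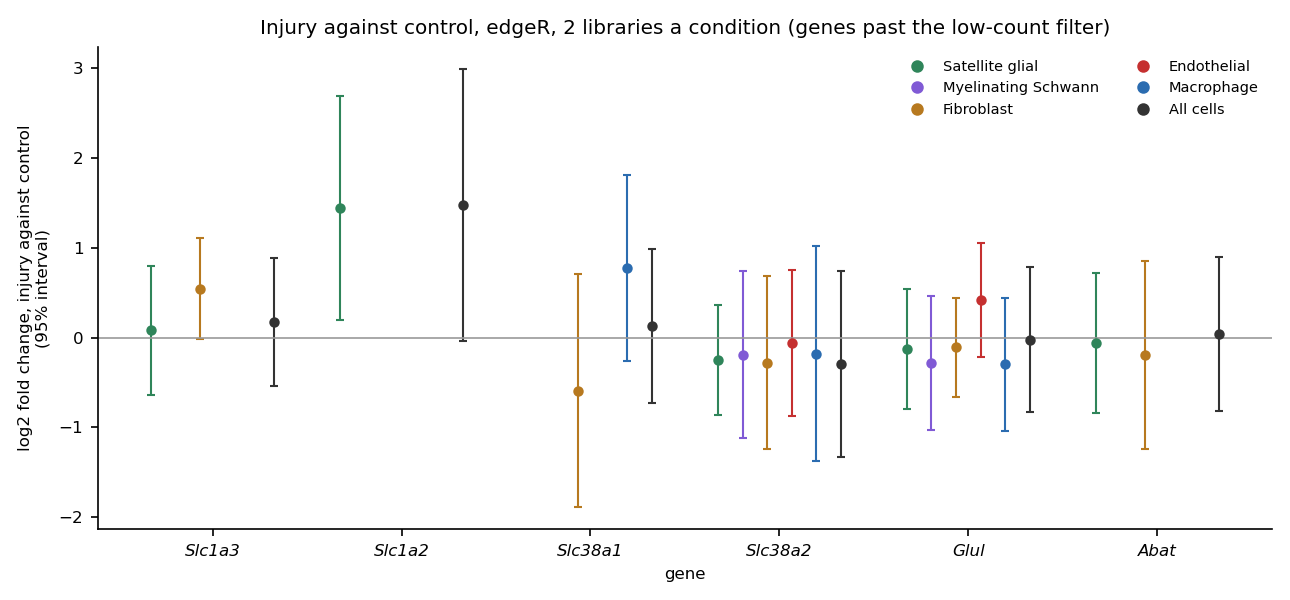
Log2 fold change of injury against control (y axis, points) with its 95% interval (bars) for each member that passed the count filter in a class (colours) or over all cells (black), from edgeR with 2 libraries a condition. All intervals but that of *Slc1a2* in SGC-like cells (0.20 to 2.69) include 0.

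The other members in SGC-like cells had intervals on both sides of 0. *Glul* was at 523 and 753 CPM after injury against 561 and 849 CPM (-0.13, interval -0.80 to 0.54), and *Abat* at 43.2 and 71.2 against 81.7 and 54.5 CPM (-0.06, interval -0.83 to 0.72). For *Slc1a3* the difference was 0.08 (interval -0.64 to 0.80), and 1.17 without control 2. In both conditions *Glul* was higher in the library numbered 2, so the condition means of 705 and 638 CPM were closer together than the libraries within a condition.

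The *Osr2* set held 735 of the 993 *Slc1a3* UMIs of the fibroblast-like cells, so its injury difference is not a separate observation. It was 0.56 (interval 0.06 to 1.06, edgeR, unadjusted p = 0.031, adjusted p = 0.96), where 310 of 6350 genes had an unadjusted p under 0.05. In the *Mfap4* set the *Slc1a3* difference was 0.05 (interval -0.89 to 0.99). Of the 4 members tested in each set, 0 were called, where 0.173% and 0.0% of all genes were called. Whether the injury effect of a member differed between 6 classes was tested in 1 fit over 7950 genes. It held 4 members, while *Slc1a2* and *Slc38a1* were below its count filter and were not tested. No member and no gene was called by edgeR for any class (0.0% in each), and at an unadjusted p under 0.05 there were 0 members and 154 to 369 genes. DESeq2 was not run for this comparison. The smallest p was that of *Glul* in endothelial-like cells against the mean of the other classes (0.71, interval -0.01 to 1.43, unadjusted p = 0.054, adjusted p = 1.00).

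Other genes of glutamate and GABA handling were read from a list of 71, made up of 17 carriers, 4 vesicular carriers, 14 enzymes and 36 receptors. Against all other gated cells, 24 of them could be tested in SGC-like cells, and 6 were at least 4-fold higher and 3 lower, where 5.19% and 13.4% of all genes were. *Slc25a18*, *Grik2* and *Grik3* passed the count filter in SGC-like cells and in none of the other 4 classes compared, so the count of higher genes depends on the filter. The higher ones were *Slc25a18* (6.29 ± 0.57), a mitochondrial glutamate carrier, the kainate receptor subunits *Grik2* (4.74 ± 0.55) and *Grik3* (3.85 ± 0.45), the neutral amino acid carrier *Slc1a4* (3.67 ± 0.30), the alanine transaminase *Gpt2* (2.18 ± 0.21) and the GABA-B receptor subunit *Gabbr1* (2.11 ± 0.20). The GABA carrier *Slc6a13* (-6.16 ± 0.61), the cystine-glutamate exchanger *Slc7a11* (-3.36 ± 0.63) and asparagine synthetase, *Asns* (-2.34 ± 0.44), were lower. All 9 had an adjusted p under 0.05, the largest being 7.93e-05 for *Slc7a11*.

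In fibroblast-like cells 21 could be tested and 2 were higher, *Slc6a13* (4.83 ± 0.36) and the GABA-A receptor subunit *Gabra3* (3.27 ± 0.60), where 5.56% of all genes were. *Gabra3* passed the filter in this class alone among the 5. *Slc6a13* also separated the fibroblast sets in the direction of *Slc1a3* (*Osr2* set minus *Mfap4* set 3.93 ± 0.30, adjusted p = 4.07e-08), as 1 of the 12 listed genes tested there. Endothelial-like cells had 0 higher and 5 lower of 18, among them *Slc1a5* (-3.21 ± 0.24) and *Gpt2* (-3.08 ± 0.49), and macrophage-like cells 0 higher and 6 lower of 21, where 13.0% and 16.1% of all genes were lower. In myelinating Schwann-like cells *Slc6a13* was lower. Against the mean of the other classes, neuron-like cells had 6 of 16 higher (12.2% of all genes), led by the vesicular glutamate carrier *Slc17a6* (9.43 ± 1.05) and the receptor *Grm7* (5.66 ± 0.88). *Slc17a6* and *Grm7* passed the count filter in none of the 5 comparisons with all other gated cells. The neuron-like count therefore depends on the filter, and their values are a description. It also rests on 2 pools, of 31 cells in control 2 and 11 in injury 2. After injury 0 of the listed genes were called in any class, where edgeR tested 35 over all cells, 21 in fibroblast-like, 17 in SGC-like, 10 in macrophage-like, 4 in Schwann-like and 5 in endothelial-like cells. Fitted values of genes near 0 UMIs in a pool depend on the prior count. A gene near 0 UMIs in a class passed the filter through the other cells, so counts of lower genes depend on the filter.

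The genes with the most similar pattern were found by Pearson's r of the mean log2 CPM over the 12 classes in the fit, among 6650 or 6651 other genes. For *Slc1a2* they were *Aqp4* (0.99), a water channel, and *Crym* (0.98). *Slc1a3* was closest to *Col11a1* (0.98), *Nnat* (0.97) and *Col9a2* (0.97), the first and last being collagen chains. *Abat* was closest to *Cdo1* (0.95), the enzyme of the first step of cysteine breakdown, and *Glul* to *Gbp6* (0.92) and *Hyal2* (0.92). *Slc38a1* was closest to *Rgs10* (0.96) and *Slc38a2* to *Ext2* (0.92). Among the members, *Abat* ran with *Slc1a2* (0.83) and *Slc1a3* (0.82), and *Slc38a1* had a negative r with each of the others (-0.11 to -0.33). *Slc1a2* had 41 UMIs in SGC-like cells and 0 in most of the 12 classes, so its r values rest mainly on 1 class. *Slc1a2* and *Slc38a1* were also below the count filter of this fit. The 12 points share libraries and differ in depth, and r is given as a description.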

How the data were processed

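Single cell RNA-seq of dissociated DRG was analysed in 4 libraries. The authors deposited unnormalized UMI counts, made with Cell Ranger on mm10 per the submitters' processing notes, before the cell filter and CPM scaling of their methods. Cells with 600 to 15000 UMIs, 500 to 4000 genes and under 10% mitochondrial UMIs were kept. Doublets were not called apart from these limits and the lead of 2 markers asked of a class. UMIs were summed per library and class, in pools of at least 10 cells, and tested with edgeR 4.0.16 (TMM, filterByExpr, quasi-likelihood) in R 4.3.3. Calls between classes needed an adjusted p under 0.05 and a 4-fold difference, after the thresholds of the methods. DESeq2 1.42.0 served as an alternative. Counting intervals (exact, 95%) cover counting error only. Medians of 2775 to 4845 UMIs per cell limit what is seen of rare genes. The tests were tried on simulated data.

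Members and lists were chosen with earlier results of these data known. All 6 members were read in each comparison, and those not called or under 4-fold are not all named. Listed pathway genes were taken when called (at most 8 a comparison), and 3 genes of highest r per member, of which some are given. The contrast with *Scn7a*-positive glia could not be fitted as designed. The comparisons with all other gated cells summed, between pairs of classes and between fibroblast sets were added after seeing the data. Promoters came from RefSeq (GRCm38.p6), which matched 4 of 6 members. Some genes of the lists are not reported here.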

Additional observations from a re-analysis of the deposited data

Results flagged for a closer look

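Most *Slc38a1* UMIs lay outside the cells analysed. Of its 606 UMIs in all barcodes, 362 (59.7%) were in barcodes that failed the limits on UMIs, genes or mitochondrial share, against 12.8% for *Slc1a3* and 18.1% for *Glul*. With the upper limits lifted, the neuron-like cells rose from 49 to 140 and their *Slc38a1* UMIs from 14 to 119.

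Of the 87 filtered *Slc1a2* UMIs, 39 (44.8%) were in the 1801 cells that met no class, against 14.6% for *Glul*. The level in those cells was 5.25 ± 2.84 CPM (SD, n = 4), against 12.3 ± 5.18 CPM in SGC-like cells. Which cells these are was not tested.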

How the results depend on the processing

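The alternatives were other size factors, no count filter, DESeq2, a looser and a stricter gate, no upper limits, all barcodes, a replicate block and leaving out each library. For 66 single values, 362 of 380 outcomes under the other alternatives kept their direction and side of the threshold, 11 missed the threshold and 7 turned direction. Without 1 library the numbers were 219, 9 and 36 of 264. The members called between SGC-like and Schwann-like cells (2) were 1 under the looser gate and 1 to 3 without a library, those between the fibroblast sets (2) 1 to 3, and the class calls (6) 5 to 6. The 0 injury calls stayed 0 in every setting run.

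Fibroblast-like against SGC-like *Glul* was 0.079 under the looser and 0.027 under the stricter gate, and -0.27 to 0.11 without a library. Against all other gated cells, *Glul* was -0.16 to 0.067 in SGC-like and -0.31 to 0.0093 in fibroblast-like cells without a library, and *Abat* -0.30 to 0.34 in fibroblast-like cells. Over all cells the injury difference of *Glul* was 0.13 without upper limits and 0.11 in all barcodes, and that of *Abat* -0.14 and -0.18.

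The other injury differences that turned did so without a library. In SGC-like cells these were *Glul* (-0.41 to 0.35), *Slc1a3* (-0.12 to 1.17) and *Abat* (-0.42 to 0.28). In fibroblast-like cells they were *Glul* (-0.26 to 0.07), *Slc38a2* (-0.73 to 0.42) and *Abat* (-0.77 to 0.22). *Slc38a2* ranged from -0.47 to 0.32 in Schwann-like, -0.82 to 0.42 in endothelial-like and -0.89 to 0.32 in macrophage-like cells, where *Glul* ranged from -0.60 to 0.14. Over all cells the ranges were -0.23 to 0.25 (*Glul*), -0.0609 to 0.39 (*Slc1a3*), -0.11 to 0.42 (*Slc38a1*), -0.72 to 0.091 (*Slc38a2*) and -0.24 to 0.44 (*Abat*). In the *Osr2* set *Glul* ranged from -0.30 to 0.15, and in the *Mfap4* set *Slc1a3* from -0.51 to 0.69, *Slc38a2* from -0.25 to 0.37 and *Glul* from -0.0306 to 0.20. The cause was not tested, and a condition left with 1 library is assumed to vary like the other.

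Replicate numbers 1 and 2 occur in both conditions, and the sources used here do not tie a number to a batch. Same-numbered libraries deviated together (correlation 0.15, in SGC-like cells, to 0.59). They were alike in composition for some classes, with 87 and 111 pericyte-like cells in the libraries numbered 1 against 10 and 5. For SGC-like cells they were not, with 26 of 1301 filtered cells in control 1 and 296 of 2377 in injury 1. A shared batch was not tested and cannot be told apart with 2 pairs. With the replicate block 0 members were called, and *Abat* in SGC-like cells turned to 0.12. Another scaling moved the median of all genes by 0.12 in Schwann-like and -0.21 in macrophage-like cells against the mean of the others. Depth limits rare members, with 41 UMIs of *Slc1a2* and 1 of *Slc38a1* in SGC-like cells.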
